A study of Mastomys natalensis with 3 samples.

Results

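Ion channel subunits were followed through 137 probe sets of 86 genes on 3 rat expression arrays that had been hybridised with gastric RNA of the African rodent Mastomys natalensis. The members were taken by gene symbol, with no measured value used. A probe set had to carry a single symbol beginning with Kcn, Cacn, Scn or Clcn, or the symbol Abcc8 or Abcc9. Kcnj15 and Kcnq1, potassium channels of the acid-secreting parietal cell, were left out. The rule found 137 of the 7006 singly named probe sets, and 86 of their 4736 genes. Potassium channels held 85 probe sets of 54 genes, calcium channels 26 of 14, sodium channels 20 of 13 and the chloride family 6 of 5. Not every member forms a voltage-gated pore: the set includes inward rectifiers, tandem-pore and epithelial sodium channels, auxiliary subunits, and Clcn proteins of intracellular membranes that exchange chloride for protons.

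Each group had 1 array. Animals of the first group had received loxtidine, a blocker of the histamine receptor on parietal cells, for 8 weeks, and those of the second group for 16 weeks. Animals of the third group had a carcinoid of enterochromaffin-like (ECL) cells, the histamine cells of the stomach, that had developed spontaneously. The labels call every sample enriched ECL cells. As source they name those cells at 8 weeks alone, and otherwise gastric mucosa. Each array carries a lot label of its own, so that lot and group cannot be told apart. Neither the number of animals behind a sample nor their age is given in the labels, and no untreated mucosa was analysed here. With 1 array per group no test between groups was possible, and every difference below describes these arrays.

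The defining ECL gene was not seen on any array, which does not settle the label. Rat probes met Mastomys RNA, and the part of sequence differences in this signal was not tested. Hdc, which makes histamine, read 4.43, 4.77 and 3.2 (normalized intensity at 8 weeks, 16 weeks and carcinoid), below the floor on all arrays. The vesicular monoamine transporter Slc18a2 read 21.8, 42.3 and 23.2 on its brighter probe set and was below the floor on the other. The gastrin receptor Cckbr read 74.3, 56.5 and 35.2 on its brighter probe set, and 2.57, 33.4 and 2.83 on the other. By contrast, Atp4a of the parietal proton pump read 966, 1449 and 903 on its brightest probe set. Its others were below the floor at 8 weeks, at 4.2, 95.4 and 55, and at 4.67, 30.2 and 15.6. Pepsinogen C (Pgc) of chief cells read 4695, 4589 and 3724. RNA of other mucosal cells was thus present on every array. In such bulk samples fewer cells of a type and less RNA per cell cannot be told apart.

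Potassium channels carry potassium out of the cell and hold the membrane at rest. Sodium and calcium channels depolarise it, and calcium that enters through voltage-gated channels triggers the fusion of secretory granules in endocrine cells. Each pore is built from alpha subunits, and auxiliary subunits (Kcnab, Kcne, Kcnmb, Cacnb, Cacna2d, Cacng) set its gating and its traffic to the membrane. In the ATP-sensitive potassium channel a Kcnj pore is joined to a sulfonylurea receptor, Abcc8 or Abcc9, and couples the metabolic state to the membrane potential.

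Intensities were quantile normalized, so that each array has the same distribution. The floor was set at 12.4, the median of all non-control values, and lower values were raised to it. A fold is given where both arrays reached the floor, and a bound ("at least") where only 1 did. The only error these data hold is the disagreement between probe sets of the same gene. In log2 units it came to 0.79 between the loxtidine arrays (410 genes with a usable pair). It was 0.82 between the carcinoid and 8-week arrays (395 genes), and 0.62 between the carcinoid and 16-week arrays (457 genes). Among channel genes it was 0.75 (6 genes), 0.78 (5 genes) and 0.74 (7 genes). A 2-fold difference, 1 on the log2 scale, is therefore little larger than this spread of a single probe set. The root mean square difference between 2 probe sets of a gene is larger than the spread, by the square root of 2.

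Channel probe sets were dim relative to the floor of 12.4. Of 137 members 55 (40.1%) were at or above the floor at 8 weeks, 50 (36.5%) at 16 weeks and 54 (39.4%) in the carcinoid, whereas the floor passes 50.0%, 50.1% and 50.0% of all non-control probe sets by definition. All 3 arrays reached it for 26 members (19.0%, against 30.5% of all non-control probe sets) and none for 54 (39.4%, against 29.2%). At the brighter level of 30.0, the 75th percentile, 8 members lay above on all arrays (5.84%, against 14.6%). With the floor at 4.2, the 25th percentile, members were level with all probe sets at 8 weeks (75.2%, against 75.4%). Their share was then lower at 16 weeks (71.5%, against 75.1%) and in the carcinoid (69.3%, against 75.3%). Of the 86 genes, 61 reached the floor with at least 1 probe set on at least 1 array. Rat probes met Mastomys RNA here, and the part of sequence differences in these signals was not tested. The signal of different probe sets does not rank their transcripts.

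**Figure D1:**
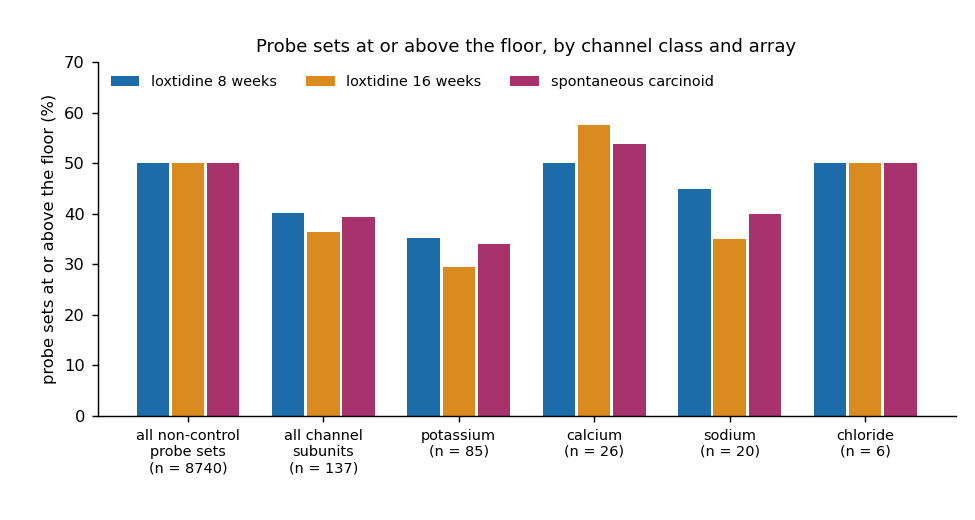
Share of probe sets at or above the floor (%, vertical axis) on each array for all non-control probe sets, all channel subunits and the potassium, calcium, sodium and chloride members, with the number of probe sets under each name. Potassium channels reached the floor on 29.4 to 35.3% of probe sets and calcium channels on 50.0 to 57.7%.

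The classes differed in this share. Potassium channel probe sets reached the floor in 35.3%, 29.4% and 34.1% of cases at 8 weeks, 16 weeks and in the carcinoid, and sodium channel probe sets in 45.0%, 35.0% and 40.0%. Calcium channels did so in 50.0%, 57.7% and 53.8%, close to all probe sets. The 6 Clcn probe sets had 3 above the floor on each array. Shared-sequence probe sets, whose names end in _s_at, made up 32.8% of the members and 16.8% of all probe sets, and 55.6% of those members reached the floor on at least 1 array against 71.7% of all such probe sets. Their signal can include close relatives of the named gene.

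**Figure D2:**
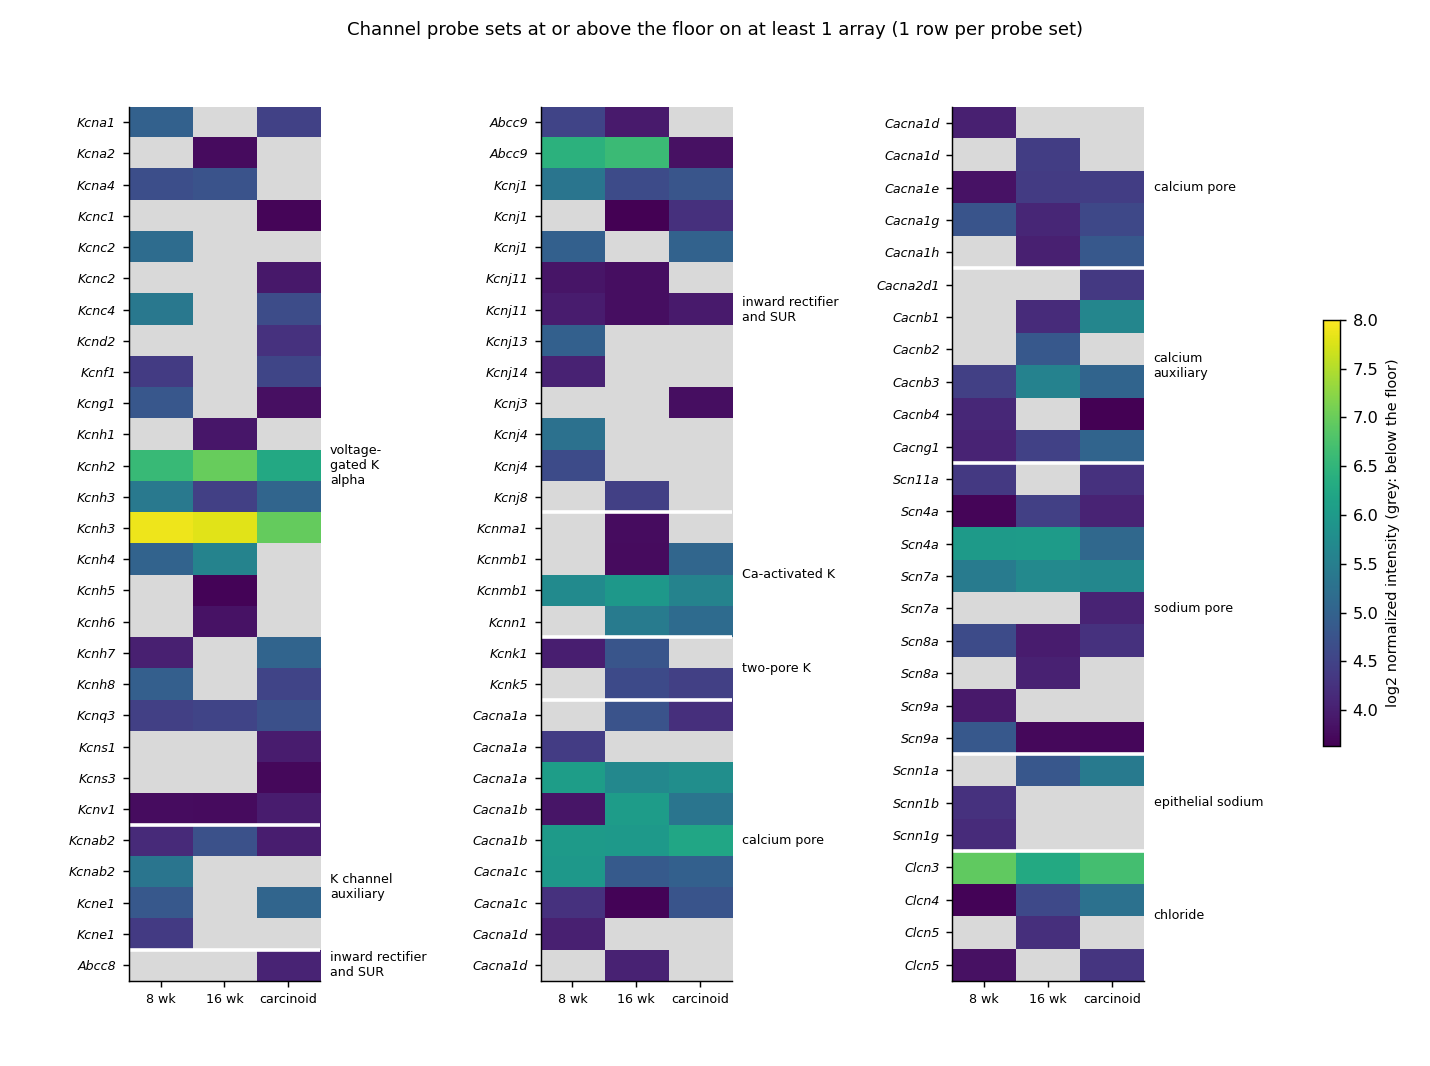
The 83 channel probe sets that reached the floor on at least 1 array, 1 row each and grouped by class, with the 3 arrays as columns and colour giving log2 normalized intensity. Grey cells lie below the floor; 26 rows are coloured on all 3 arrays and 33 on a single array.

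Between 16 and 8 weeks of loxtidine, 31 members were at or above the floor on both arrays, and few were far apart. At 16 weeks 2 were at least 2-fold higher (6.45%, against 10.8% of all non-control probe sets) and 2 at least 2-fold lower (6.45%, against 9.83%). Cacna1b and Cacnb3 were the higher genes, Cacna1c and Scn9a the lower ones. Their median log2 difference was 0.02, against -0.01 over all probe sets. As deposited, without normalization, 3 of 27 members were higher (11.1%, against 19.7% of all) and 0 lower (against 3.97%), and the median difference over all probe sets was 0.39.

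Members seen on a single array of this pair gave bounds. A bound of at least 2-fold higher at 16 weeks applied to 4 of 19 members (21.1%, against 35.3%), and one of at least 2-fold lower to 11 of 24 (45.8%, against 34.4%). All of those 11 were potassium channel probe sets, of 15 seen at 8 but not at 16 weeks. As deposited, 7 of 26 members had a bound of at least 2-fold higher (26.9%, against 39.2%) and 7 of 21 one of at least 2-fold lower (33.3%, against 24.6%), the lower ones again all of potassium channels. The 8-week array carried a mark of its own: the GAPDH 5' control read 37.3 there and 364 and 344 on the others (deposited intensity), while the 3' control read 334, 520 and 793. The actin 5' control likewise read 47.8, 219 and 196. Its part in the channel values was not tested.

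Between the carcinoid and 8 weeks, 37 members were measured on both arrays. On the carcinoid array 3 were at least 2-fold higher (8.11%, against 11.7%), those of Clcn4, Cacna1b and Kcnh7. Another 3 were lower (8.11%, against 11.3%), those of Abcc9, Scn9a and Kcng1. The median was -0.14, against -0.04 over all probe sets. Bounds of at least 2-fold stood at 5 of 17 higher (29.4%, against 36.2%) and 7 of 18 lower (38.9%, against 34.7%). As deposited 3 of 33 measured members were higher (9.09%, against 25.4%) and 1 lower (3.03%, against 3.63%). The bounds were then 8 of 24 higher (33.3%, against 41.1%) and 4 of 15 lower (26.7%, against 24.8%), and the median over all probe sets was 0.45.

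Between the carcinoid and 16 weeks, 34 members were measured on both arrays. Cacnb1, Kcnmb1 and Cacna1c each had a probe set at least 2-fold higher in the carcinoid, 3 in all (8.82%, against 7.01%). Abcc9 alone was lower (2.94%, against 6.25%). Bounds of at least 2-fold held for 4 of 20 higher (20.0%, against 26.0%) and 4 of 16 lower (25%, against 30.1%). The median was 0.13, against 0.01 over all probe sets. As deposited 5 of 37 measured members were higher (13.5%, against 9.53%) and 2 lower (5.41%, against 5.85%). The bounds were then 5 of 20 higher (25%, against 30.7%) and 3 of 16 lower (18.8%, against 33.0%), with a median of 0.10 over all probe sets. The comparisons share arrays in pairs, so their values are not independent.

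**Figure D3:**
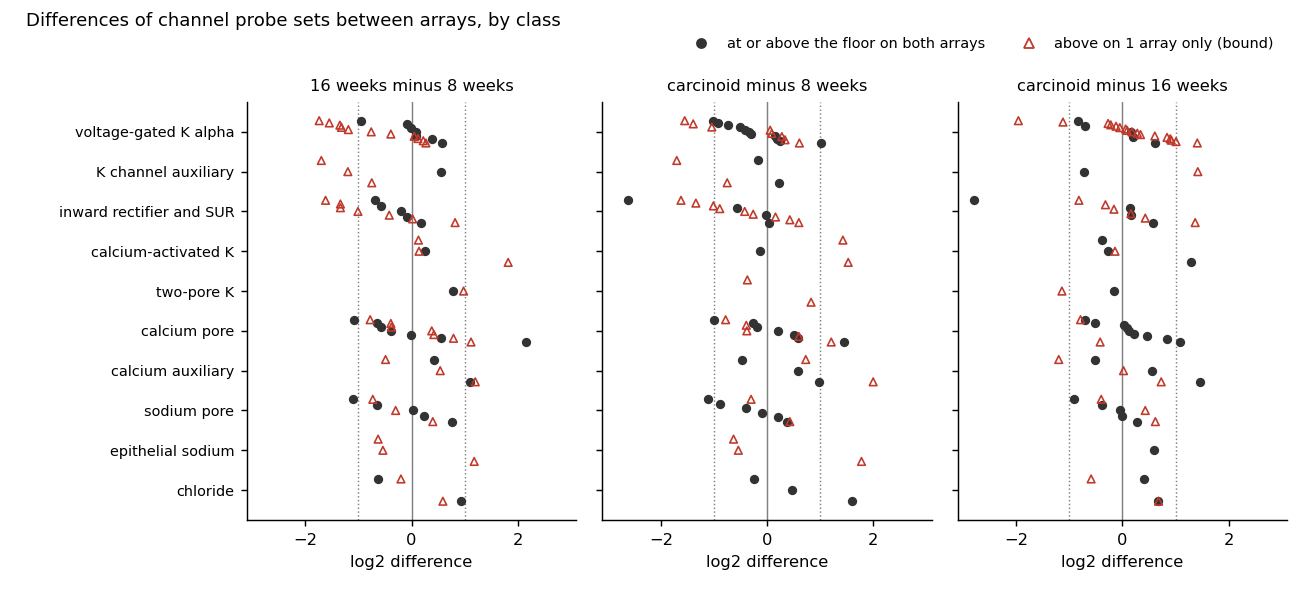
Log2 difference (horizontal axis) of each channel probe set in the 3 comparisons, by class. Filled circles were at or above the floor on both arrays, open triangles are bounds with 1 array below it, and dotted lines mark 2-fold; the lowest circle, at -2.62 and -2.79 in the carcinoid panels, is Abcc9.

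Over all pairs of arrays, 29 members of 27 genes were at least 2-fold apart somewhere, measured or as a bound (21.2%, against 28.3% of all non-control probe sets). Only 11 of them, of 10 genes, were so between arrays that both reached the floor. Raising the floor to 30.0, where the last section gives the shares beside all probe sets, left 3 probe sets at least 2-fold apart. These were of Abcc9, at least 2.9-fold and 3.27-fold lower in the carcinoid than at 8 and 16 weeks, and of Cacna1b and Cacna1c. Cacna1b was at least 2.2-fold higher and Cacna1c at least 2.08-fold lower at 16 than at 8 weeks. However, the brighter Cacna1b probe set read 64.7 and 64.1 at 8 and 16 weeks, and Cacna1c was 1.48-fold lower as deposited.

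Among members measured on both arrays of a pair, the largest difference was that of 1 probe set of the ATP-sensitive potassium channel. Its gene Abcc9, the receptor subunit of the vascular and muscle form of the channel, read 87, 98.2 and 14.2 (normalized intensity at 8 weeks, 16 weeks and carcinoid) on its brightest probe set, D83598_at. The carcinoid stood far below the loxtidine arrays, 6.14-fold below 8 weeks and 6.93-fold below 16 weeks (log2 differences of -2.62 and -2.79, against spreads of 0.82 and 0.62). The latter was the lowest difference of all 3311 probe sets measured on both arrays. As deposited these were 3.98-fold and 6.56-fold. Members seen on 1 array of a pair have bounds only, and with the floor at 4.2 some of these passed Abcc9: in the carcinoid against 8 weeks the log2 bound was 3.34 for Scnn1a, -3.19 for Kcnj4 and -3.11 for Kcnc2. A second Abcc9 probe set, AF019628_at, read 23.1, 15.5 and 1.4, at least 1.86-fold and at least 1.25-fold lower in the carcinoid. The last, AF087838_s_at, was below the floor on every array, at 3.3, 7.7 and 4.4.

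The other parts of this channel lay near the floor. Kcnj8, the pore that pairs with Abcc9 in vascular muscle, read 4.67, 21.9 and 6.1, so that it was seen on the 16-week array alone, at least 1.76-fold above either other array. Kcnj11, the pore of the endocrine and muscle forms, read 15.7, 13.8 and 15.5 on one probe set and 14.8, 13.9 and 5.77 on another made from the same sequence. Abcc8, the receptor of the pancreatic beta cell form, read 2.83, 4.53 and 16.7 on one probe set and 2 to 3.1 on the other. Thus Abcc8 was seen in the carcinoid alone, where Abcc9 was lowest, at least 1.34-fold above the other arrays. Smooth muscle also makes Abcc9, and the summed normalized intensity of the 14 probe sets of its list (8 of 11 listed genes) was 120, 198 and 235, with Des and Tpm2 below the floor throughout. Myl9 supplied much of this sum with 1 probe set, at 20.8, 58.8 and 72.3. The list was not uniform: 6 of its 8 probe sets that reached the floor were highest in the carcinoid, but Actg2 read 39, 26.3 and 8.9, at least 3.15-fold lower in the carcinoid than at 8 weeks. Endothelial genes (5 of 9 listed, Vwf below the floor throughout) summed to 137, 58.3 and 63.6. Their part in the Abcc9 difference was not tested.

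**Figure D4:**
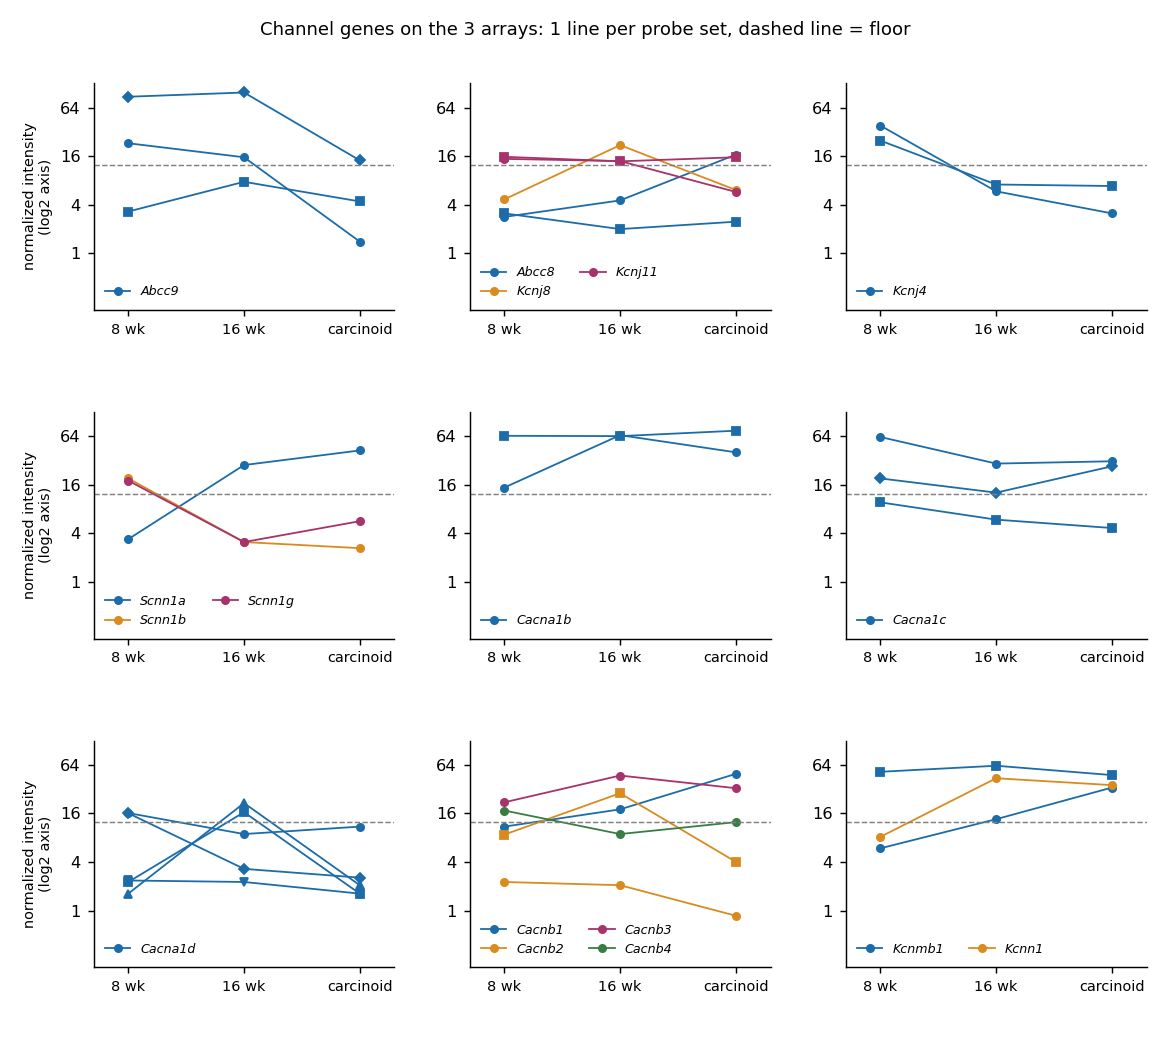
Normalized intensity (vertical axis, log2 scale) of selected channel genes on the 3 arrays, 1 line per probe set with the marker shape telling probe sets of a gene apart; the dashed line is the floor of 12.4. Abcc9 is lowest, at 14.2, on the carcinoid array on its brightest probe set, Scnn1a and the other epithelial sodium subunits cross the floor in opposite directions, and probe sets of Cacna1b and Cacna1d differ in course.

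Inward rectifiers pass potassium more easily into the cell than out and steady the resting potential. Both Kcnj4 probe sets were seen at 8 weeks alone. They read 38.2, 5.87 and 3.13, and 24.9, 7.13 and 6.83. The former was at least 3.08-fold and the latter at least 2.01-fold above each other array (2.46-fold and 1.66-fold as deposited). At this floor no other channel gene had more than 1 probe set at least 2-fold apart in the same comparison and direction. Kcnj13, a pore of transporting epithelia, read 31.4, 8.02 and 2.27, at least 2.53-fold lower on both later arrays.

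Kcnj1, which secretes potassium in the kidney tubule, had 3 probe sets that differed. S78154_at read 31.3, 9.27 and 32, so that 16 weeks was at least 2.52-fold below 8 weeks and at least 2.58-fold below the carcinoid. AF081365_s_at read 40.3, 24.9 and 27.4, and AF081366_s_at read 4.8, 12.5 and 18.8. Of the remaining Kcnj genes, Kcnj14 read 16.5 at 8 weeks and Kcnj3 13.9 in the carcinoid, both below the floor elsewhere. Kcnj2, Kcnj5, Kcnj6, Kcnj9, Kcnj10, Kcnj12 and Kcnj16 did not reach the floor with any probe set. Across the 26 probe sets of this class, 8 of the 14 that reached the floor were highest on the 8-week array (57.1%, against 37.4% of all non-control probe sets that reached it). Over all channel subunits this share was 37.3%, and over all potassium channel members 36.2%.

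Voltage-gated potassium pores open on depolarisation and end the action potential. Of their 40 probe sets, 23 reached the floor on at least 1 array and 5 on all. The ether-a-go-go family supplied both probe sets of this class that lay above 30.0 on all arrays. The first, of Kcnh3, read 238, 224 and 125, 1.9-fold lower in the carcinoid than at 8 weeks, and its other probe set read 42.3, 21.9 and 33.4. Kcnh2, the pore of the rapid delayed rectifier of the heart, read 95.6, 126 and 77.5, with all pairs under 2-fold apart and its other probe set below the floor on all arrays. Kcnh4, of the same subfamily as Kcnh3, read 32.6, 48.2 and 12.1. The carcinoid was lowest, at least 2.63-fold below 8 weeks and at least 3.89-fold below 16 weeks (1.9-fold and 3.8-fold as deposited). Kcnh7, related to Kcnh2, went the other way, with 16.2, 5.87 and 33: it was 2.03-fold higher in the carcinoid than at 8 weeks and at least 2.66-fold higher than at 16 weeks. Kcnh8 read 30.9, 12.1 and 23.2 on its brighter probe set, at least 2.49-fold lower at 16 than at 8 weeks (1.93-fold as deposited). Kcnh1, Kcnh5 and Kcnh6 were seen at 16 weeks alone, at 14.9, 12.8 and 14.4.

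Shaker-type Kcna1, Shaw-type Kcnc4 and Kcng1, of neither type, were below the floor at 16 weeks. In contrast, the brightest probe sets of Shaker-type Kcna2 and Kcna4 were highest there (13.5 and 27). Kcnc4, a fast-closing pore, read 41.5, 6.8 and 25: 16 weeks was at least 3.35-fold below 8 weeks and at least 2.01-fold below the carcinoid. Kcna1 read 31.7, 6.7 and 22.2 on its brighter probe set, at least 2.55-fold lower at 16 than at 8 weeks. Kcng1, a subunit that forms channels only with other alpha subunits, read 28.2, 2.73 and 14. It was at least 2.27-fold lower at 16 weeks and 2.01-fold lower in the carcinoid than at 8 weeks (1.87-fold and 1.44-fold as deposited). On these probe sets Kcnc4, Kcna1 and Kcng1 were highest at 8 weeks and lowest at 16 weeks.

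Kcnc2 was seen on 1 array per probe set. M59211_at read 36.3, 1.5 and 2.73, at least 2.93-fold above each other array, X62839mRNA_s_at was above the floor in the carcinoid alone (15), and the other pair of probe sets stayed below it. Kcna4, an inactivating pore, read 25.6, 27 and 10.6, and so was lowest in the carcinoid, at least 2.06-fold and at least 2.18-fold below 8 and 16 weeks (1.71-fold and 2.36-fold as deposited). Its other probe set was below the floor. The remaining pores had no measured difference and no bound of 2-fold, though a bound sets no upper limit. Kcnq3, of the M current that brakes repeated firing, read 22, 23.2 and 26, and the modifier Kcnv1 read 13.7, 13.6 and 15.6. Kcnf1 was below the floor at 16 weeks alone, Kcna2 above it there alone (13.5), and Kcnc1, Kcnd2, Kcns1 and Kcns3 were above it in the carcinoid alone (12.9 to 19). Kcna3, Kcna5, Kcna6, Kcnb2 and Kcnd3 did not reach it.

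Auxiliary potassium subunits bind the pores above. Kcnab2, a cytoplasmic beta subunit, read 40.3, 9.27 and 5.57 on one probe set, at least 3.25-fold higher at 8 weeks than on each other array. Its other probe set read 17.8, 26.3 and 15.8, which puts the highest value at 16 weeks. Kcne1, a small membrane partner of Kcnq1, read 28.5, 11.7 and 33.3. Its 16-week value was at least 2.3-fold below 8 weeks and at least 2.68-fold below the carcinoid (1.85-fold and 3.06-fold as deposited), and its other probe set was seen at 8 weeks alone (20.8). Kcnab1 and Kcnab3 stayed below the floor.

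Calcium-activated potassium channels couple cell calcium to the membrane potential. Kcnn1, of the small-conductance type, read 8.23, 43.7 and 35.9. The 8-week array was lowest, with 16 weeks at least 3.53-fold and the carcinoid at least 2.9-fold above it. Kcnmb1, the beta subunit of the large-conductance channel in smooth muscle, read 52.5, 62.4 and 47.8 on its brighter probe set, all within 1.31-fold. Its other probe set read 5.93, 13.6 and 33.5, at least 2.7-fold higher in the carcinoid than at 8 weeks and 2.47-fold higher than at 16 weeks. The pore of that channel, Kcnma1, reached the floor on 1 of 4 probe sets and on the 16-week array alone (13.7). Kcnn3 and Kcnt1 did not reach the floor.

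Tandem-pore channels carry the background potassium leak. Kcnk1 read 16, 27.4 and 2.57, at least 2.21-fold lower in the carcinoid than at 16 weeks. Kcnk5 read 8.4, 24.5 and 22, with a bound of 1.97-fold for 16 weeks over 8 weeks, and Kcnk3 did not reach the floor.

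Pore subunits of calcium channels reached the floor more often, 14 of 19 probe sets on at least 1 array and 7 on all. Cacna1a and Cacna1b form the P/Q- and N-type channels of nerve endings and endocrine cells. Cacna1b read 64.7, 64.1 and 74.8 on its brighter probe set, within 1.17-fold across arrays. Its other probe set, AF055477_at, read 14.8, 65.9 and 40.4, which is 4.45-fold higher at 16 weeks and 2.73-fold higher in the carcinoid than at 8 weeks. The probe sets of this gene thus disagreed on the 8-week level relative to the others. Cacna1a read 66.5, 50.8 and 55.6 on its brightest probe set. Another read 10.9, 26.9 and 18.7, at least 2.17-fold higher at 16 weeks than at 8 weeks, another was seen at 8 weeks alone (21.3), and the last stayed below the floor.

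The L-type pores Cacna1c and Cacna1d open on strong depolarisation, Cacna1c in muscle and Cacna1d in many endocrine cells. Cacna1c read 62.5, 29.3 and 31.3 on M59786_at, 2.13-fold lower at 16 weeks than at 8 weeks (1.48-fold as deposited). On U31815_s_at it read 19.2, 12.8 and 27.1, 2.12-fold higher in the carcinoid than at 16 weeks. Both had 16 weeks lowest, but M59786_at was highest at 8 weeks and U31815_s_at in the carcinoid, while the last probe set was below the floor. Cacna1d had 5 probe sets and no common course. U31772_s_at (21.5) and M57682_at (16.6) were above the floor at 16 weeks alone, D38101_s_at (16.2) and M99221_s_at (16.1) at 8 weeks alone, and U49126_s_at on no array. No Cacna1d bound reached 2-fold.

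Of the remaining pores, T-type Cacna1h, which opens near rest, read 4.3, 16.1 and 28.7, at least 2.31-fold higher in the carcinoid than at 8 weeks. T-type Cacna1g (27.1, 17.2 and 23.9) and R-type Cacna1e (14.3, 21 and 21.4) stayed within 1.57-fold across arrays. The skeletal muscle pore Cacna1s did not reach the floor.

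Auxiliary calcium subunits bring the pores to the membrane, and each beta gene followed its own course. Cacnb1 read 11, 18 and 49.5, highest in the carcinoid, at least 3.99-fold above 8 weeks and 2.74-fold above 16 weeks. Cacnb2 read 8.77, 28.5 and 4.03 on one probe set, at least 2.3-fold higher at 16 weeks than on each other array, and was below the floor on the other. Cacnb3 read 22, 47.2 and 32.9, 2.15-fold higher at 16 than at 8 weeks. Cacnb4 read 17.4, 8.9 and 12.5, lowest at 16 weeks with a bound of 1.4-fold. Cacng1, a gamma subunit of skeletal muscle channels, read 16.7, 22.3 and 32.8, 1.97-fold higher in the carcinoid than at 8 weeks. Cacna2d1 was seen in the carcinoid alone (20.6).

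Voltage-gated sodium pores start the action potential in nerve and muscle, and 5 of their 16 probe sets reached the floor on all arrays. Scn9a, a pore of sensory and neuroendocrine cells, read 28.5, 13.2 and 13.1 on its brighter probe set. It was 2.16-fold and 2.17-fold lower at 16 weeks and in the carcinoid than at 8 weeks (1.64-fold and 1.56-fold as deposited). The other Scn9a probe set was seen at 8 weeks alone (15.3). Scn4a, the skeletal muscle pore, read 64.3, 65.2 and 34.6 on one probe set and 12.9, 22 and 16.8 on another of the same sequence. Scn7a, an atypical pore of glia and smooth muscle, read 43.8, 51.7 and 50.2 on its brighter probe set. Scn8a read 24.9, 15.7 and 19.1 on its brightest probe set, and Scn11a 20.5, 7.03 and 19.1. Apart from Scn9a no sodium pore had a measured difference or a bound of 2-fold. Scn11a, below the floor at 16 weeks, was at least 1.65-fold lower there than at 8 weeks, and such a bound sets no upper limit. Scn1a, Scn2a, Scn3a, Scn10a and the beta subunit Scn2b did not reach the floor. Neuron and glia genes (11 of 15 listed, Nefm and Syt1 below the floor throughout) summed to 255, 184 and 219 on the 3 arrays, and 1 Ncam1 probe set supplied 61.8, 15.3 and 35.5 of these. Of their 12 probe sets that reached the floor 3 were highest at 8 weeks, 4 at 16 weeks and 5 in the carcinoid, and their part was not tested.

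The epithelial sodium channel, which absorbs sodium in tight epithelia, is built from alpha, beta and gamma subunits, and these split. Scnn1a (alpha) read 3.4, 28.1 and 42.6, at least 2.27-fold higher at 16 weeks and at least 3.44-fold higher in the carcinoid than at 8 weeks. Scnn1b (beta) read 19.2, 3.13 and 2.63, and Scnn1g (gamma) read 18, 3.13 and 5.67, both above the floor at 8 weeks alone. Scnn1b stood at least 1.55-fold above both later arrays, and for Scnn1g the bound was 1.45-fold. Thus no array had all 3 subunits above the floor.

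Of the Clcn family, Clcn3, an exchanger of endosomes and synaptic vesicles, was the member above 30.0 on all arrays, at 122, 78.4 and 103, within 1.56-fold across arrays. Clcn4, an endosomal relative, read 12.7, 24.3 and 38.5, 3.03-fold higher in the carcinoid and 1.91-fold higher at 16 weeks than at 8 weeks. Its 8-week value stood just above the floor. Clcn5, of endosomes in the kidney, was seen at 16 weeks alone on one probe set (18.7) and read 14.2, 9.87 and 19.8 on the other. Clcn1 of skeletal muscle and the lysosomal Clcn7 did not reach the floor.

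Probe sets of the same channel gene often disagreed. Of 36 genes with more than 1 probe set (87 probe sets), 26 had probe sets on different sides of the floor on at least 1 array. The other 10 had all on the same side, 7 of them below the floor throughout. Where at least 2 probe sets could be compared, the sign of the difference was shared in 8 of 16 genes for 16 against 8 weeks, 9 of 16 for carcinoid against 8 weeks and 5 of 13 for carcinoid against 16 weeks. Abcc9 and Kcnj4 were among the genes whose comparable probe sets pointed the same way in the comparison where they were furthest apart. Scn9a, Cacna1c, Kcnh3 and Kcnj1 were others. Between the loxtidine arrays the Abcc9 probe sets differed in sign, 1.13-fold higher and 1.49-fold lower at 16 weeks.

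Other channel and transport genes give the setting. Of 90 ligand-gated channel probe sets (57 genes, with Grina, which shares the prefix only), 42, 39 and 37 reached the floor at 8 weeks, 16 weeks and in the carcinoid. Of 28 measured in both loxtidine arrays 3 were at least 2-fold higher and 3 lower at 16 weeks (10.7% each, against 10.8% and 9.83% of all). Their median was -0.06, beside 0.02 for the channel subunits above. The higher ones were those of Grin1, Grin2c and Grina, and the lower ones those of Grin3a and, with a pair of probe sets, the ATP-gated P2rx2. Carcinoid against 8 weeks gave 2 higher (Grin2d and Grina) and 3 lower (Gabra2, Glra1 and Grik5) among 24 measured on both arrays. These were 8.33% and 12.5%, against 11.7% and 11.3% of all, and the median was -0.02. Among 18 probe sets of other cation channels, the 4 measured in both loxtidine arrays had a median of -1.01. Of these, 2 were at least 2-fold lower at 16 weeks (50.0%, against 9.83% of all). These were Cngb1, a subunit of cyclic nucleotide-gated channels, at 32, 12.4 and 13.8, and the cation channel Trpc1, at 44, 18.7 and 13.8. Another probe set of the same sequence read 98.1, 65.9 and 59.4 for Cngb1 and 8.9, 1.4 and 13.7 for Trpc1. Calcium and sodium pumps and exchangers reached the floor on 21, 16 and 15 of 33 probe sets, and 2 of 12 were higher and 3 lower at 16 than at 8 weeks. Atp2a2, the calcium pump of the endoplasmic reticulum, read 12.7, 82.5 and 61.9 on the probe set furthest apart. Its brightest probe set read 171, 179 and 161. The others went the opposite way, at 53.2, 30.9 and 23.2, and at 35.2, 4.1 and 1.7. The exchanger Slc8a1 read 79.3, 28.7 and 87.8 on its brightest probe set. The remaining probe sets at least 2-fold apart were those of Atp2b1, which was higher, and Atp2b3, with 2 that were lower, both pumps of the cell membrane. Of the calcium release channels Itpr3, which frees calcium from internal stores, read 49.7, 129 and 103 on one probe set and 92.5, 80.5 and 83.4 on another of the same sequence.

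Across the endocrine list (14 of 17 listed genes on the array, with Hdc, Slc18a1, Scg3 and Ddc below the floor throughout) the summed normalized intensity was 393, 441 and 285. Of its 14 probe sets that reached the floor 5 were highest at 8 weeks, 7 at 16 weeks and 2 in the carcinoid (35.7%, 50.0% and 14.3%, against 37.4%, 30.3% and 32.4% of all). Parietal genes (7 of 8 listed, Kcnq1 below the floor throughout) summed to 2604, 2632 and 2106, and chief cell genes (3 of 4 listed) to 7988, 10046 and 7774. Striated muscle genes (9 of 10 listed, Myh2, Tnnc2 and Acta1 below the floor throughout) summed to 193, 112 and 84.4. How far these cell types carry the channel values was not tested.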

How the data were processed

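RNA of 3 samples was measured on Affymetrix rat arrays, 1 per group; groups came from the description of each sample. The authors deposited 1 linear intensity per probe set; how the scanner images were summarised and scaled is not given in the sources used here. Precision is limited by the number of arrays. Of 8799 probe sets 59 were controls. Symbols came from the supplied platform annotation: of 8740 non-control probe sets, 7006 had 1 symbol, 308 several and 1426 none. With 2% trimmed means of 18.1, 25.5 and 27.6, the arrays were quantile normalized (Python 3.11.15, numpy 2.4.6, pandas 2.3.3). Values under the floor of 12.4 were raised to it before log2. Background shares count all non-control probe sets treated alike. The spread between probe sets used the brightest pair per gene, with the root mean square difference divided by the square root of 2. The steps were tested on simulated data. All members may be named; full values are given for those at least 2-fold apart on any pair of arrays and for the strongest of each class. Alternatives were the values as deposited, median scaling, floors at the 25th and 75th percentiles (4.2 and 30.0), log2 of value plus floor, and 1 probe set, or the median probe set, per gene. The members and lists were chosen with earlier results of these data known. No p-value was computed.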

Additional observations from a re-analysis of the deposited data

How the results depend on the processing

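No called difference changed sign under any alternative that was run for it. However, a moved or added floor cannot reverse the order of 2 values, so a sign could change only through scaling or through other probe sets. The median of a gene's probe sets was run for only part of the calls (14 stayed within the spread, 3 moved further). Between the loxtidine arrays it was not run for Cacna1a, Cacna1b, Kcnab2 and Kcnj1, whose probe sets differed in sign. The called Cacna1a probe set was at least 2.17-fold higher at 16 weeks, but others of this gene were 1.31-fold and at least 1.72-fold lower. No paired analysis was possible because each group has 1 array. The 49 named differences of at least 2-fold moved by less than the spread between probe sets with the values as deposited or scaled to a common median, although as deposited 6 of those for 16 against 8 weeks and 5 of those for carcinoid against 8 weeks came to less than 2-fold. The floor decided how many members could be compared and called. With it at the 25th percentile, 103, 98 and 95 members reached it at 8 weeks, 16 weeks and in the carcinoid. These were 75.2%, 71.5% and 69.3% of members, against 75.4%, 75.1% and 75.3% of all probe sets. The members were thus level with all probe sets at 8 weeks and lower on the other arrays. With the floor at the 75th percentile, 21, 13 and 21 members reached it, a lower share than that of all probe sets on every array. With the low floor the measured counts higher and lower were 12 and 17 of 80 between the loxtidine arrays (15.0% and 21.2%, against 18.3% and 17.1% of all probe sets). They were 11 and 14 of 81 in the carcinoid relative to 8 weeks (13.6% and 17.3%, against 18.5% and 18.3%), and 17 and 6 of 78 relative to 16 weeks (21.8% and 7.69%, against 14.2% and 13.9%). The bounds higher were then 9 of 20, 10 of 15 and 8 of 17 (45.0%, 66.7% and 47.1%, against 60.3%, 62.5% and 59.5%), and the bounds lower for carcinoid against 16 weeks 9 of 20 (45.0%, against 58.4%). With the high floor the measured counts were 0 of 10, 11 and 11 (against 7.93%, 9.46% and 2.71% higher and 6.80%, 8.24% and 2.96% lower over all probe sets), bounds higher were 1, 0 and 0, bounds lower 1 in each comparison, and the median for carcinoid against 16 weeks was -0.39. With log2 of value plus floor the counts higher and lower of 137 were 5 and 11 (3.65% and 8.03%, against 8.03% and 8.16%), then 8 and 7 (5.84% and 5.11%, against 8.99% and 8.30%), and 7 lower for carcinoid against 16 weeks (5.11%, against 5.26%). As deposited, counts lower were 0, 1 and 2, and 5 were higher for carcinoid against 16 weeks. Bounds as deposited were 7 higher and 7 lower between the loxtidine arrays, 8 and 4 between the carcinoid and 8 weeks, with medians of 0.44 and 0.29. Median scaling gave 1 lower for 16 against 8 weeks (3.23%, against 7.43%). With 1 probe set per gene 1 was higher for 16 against 8 weeks and 1 for carcinoid against 16 weeks. Beyond the effect of the floor and of fewer probe sets, the cause of these changes was not tested.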
